A study of Mus musculus with 9 samples.

Results

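SR proteins and heterogeneous nuclear ribonucleoproteins (hnRNPs) are the 2 large families of RNA-binding proteins that choose splice sites, and their RNA was measured here in cortical tissue of E13.5 mouse embryos with mutations in ISWI chromatin remodellers. The genes were the protein-coding genes of the GENCODE M21 annotation with a symbol that begins with Srsf and a number, or with Hnrnp. There were 31 such genes among the 35498 genes quantified, 11 SR protein genes and 20 hnRNP genes. They had 282 transcripts in the annotation. By its transcript types, 135 are coding, 75 are retained-intron transcripts, 37 are other processed transcripts and 35 are targets of nonsense-mediated decay (NMD).

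Whole cortical tissue of C57Bl/6 embryos was collected in 3 groups of 3 libraries. The double knockout (DKO) is labelled Smarca1 -/- with a Cre allele, and the design text of the series adds the loss of Smarca5. The Smarca1 KO is labelled Smarca1 -/- without Cre, so the loss of Smarca1 is shared by DKO and Smarca1 KO. WT is labelled Smarca1 +/+ without Cre. The promoter that drives Cre, the exons removed and the Smarca5 alleles of the groups without Cre were not given in the sources used here. Nor do the labels say that each library is a separate embryo, and the p-values then reflect only variation among these libraries, which could be technical. DKO differs from Smarca1 KO in Cre as well as in Smarca5, and these cannot be told apart.

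SR proteins carry an RNA recognition motif and a tail rich in arginine and serine, bind exonic enhancers and recruit the U1 and U2 particles to the splice sites beside them. hnRNPs coat nascent transcripts and often act on the same sites in the opposite sense, by silencing an exon or looping it out. Most SR genes, and several hnRNP genes, limit their own protein: the protein promotes inclusion of a poison exon with a premature stop codon, or retention of an intron, and that RNA is degraded by NMD or held in the nucleus. In the embryonic cortex, changes in these factors accompany the switch of splicing programmes between progenitors and neurons.

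Libraries held 27466225 to 46007718 estimated counts on annotated transcripts. Smarca5 RNA was 84.4, 79.2 and 77.2 CPM (the count as a share of its library, on a fixed scale) for DKO, against 246, 243 and 212 CPM for Smarca1 KO and 267, 271 and 262 CPM for WT. The log2 fold change was -1.54 ± 0.06 (SE) for DKO over Smarca1 KO, with an adjusted p of 3.0e-06 by edgeR's quasi-likelihood test with Benjamini-Hochberg adjustment. Smarca1 RNA was 37.9, 38.8 and 38.4 CPM for DKO, 42.3, 35.3 and 43.8 CPM for Smarca1 KO and 37.8, 36.4 and 37.2 CPM for WT. The DKO libraries lay just above the WT libraries, and DKO over WT was 0.05 ± 0.07 on the log2 scale (edgeR, adjusted p 0.709). Without knowledge of the exons removed, the summed Smarca1 count checks nothing about that genotype. The tissue held markers of radial glia, intermediate progenitors and projection neurons in every library, and the 3 liver genes used as a negative control summed to at most 0.364 CPM. Ttr, planned as a liver gene too and also listed for cortical hem and choroid plexus, was left out of that sum. It had 158 to 449 CPM over the 9 libraries.

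Among the 31 genes, the highest levels were those of hnRNP genes. On the TPM scale, which corrects for transcript length and so allows genes to be compared, the highest level was that of Hnrnpa2b1, which encodes the A2 and B1 proteins that bind UAG-rich motifs and also sort RNAs for transport. Hnrnpa2b1 had 2522, 2506 and 2465 TPM in DKO, 2617, 2632 and 2502 TPM in Smarca1 KO and 2783, 2737 and 2772 TPM in WT. Hnrnpa1, the classical antagonist of SRSF1 in the choice of 5′ splice sites, had 2081, 2064 and 2047 TPM in DKO, 2099, 2221 and 2057 TPM in Smarca1 KO and 2258, 2247 and 2212 TPM in WT. Hnrnph1, whose protein binds runs of G, had 1327, 1284 and 1298 TPM in DKO, 1433, 1439 and 1367 TPM in Smarca1 KO and 1486, 1443 and 1448 TPM in WT. For all 3 genes the 3 DKO libraries lay below the 3 WT libraries.

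The most abundant SR gene was Srsf1, the founding member, needed for constitutive splicing and for many exon choices, with 601, 627 and 583 TPM in DKO, 614, 637 and 572 TPM in Smarca1 KO and 682, 641 and 678 TPM in WT. Srsf5 followed with a mean of 574 TPM over the 9 libraries (range 551 to 597) and Srsf3, the smallest SR protein and a link between splicing and mRNA export, with 548 TPM (range 492 to 609.7), and their ranges overlap. At the low end of the hnRNP genes stood Hnrnpll, a regulator of exon choice best known from T lymphocytes, at a mean of 117 TPM. The lowest of all was Srsf12, an SR protein able to repress splicing, at 12.9 TPM. Between these ends, the other 23 genes had mean levels from 141 TPM (Hnrnpul2) to 1209 TPM (Hnrnpab).

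**Figure D1:**
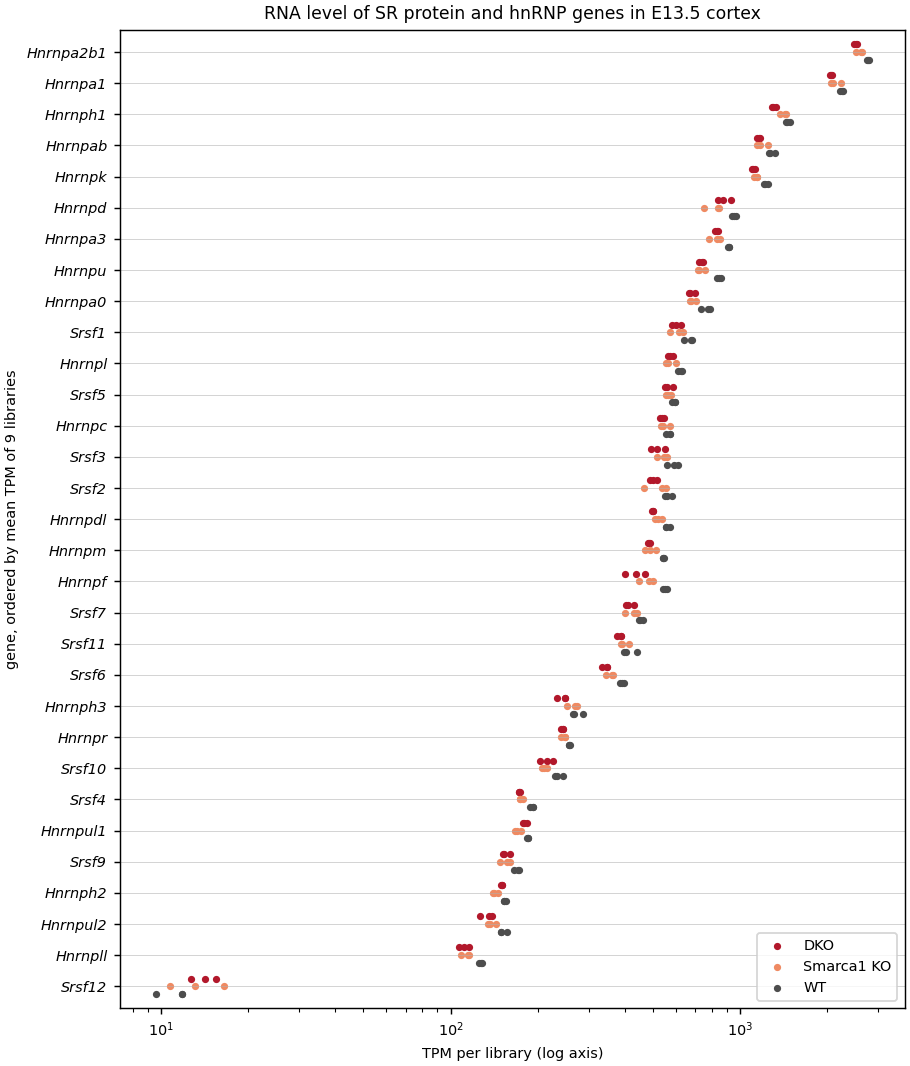
TPM of the 31 SR protein and hnRNP genes in each of the 9 libraries on a log axis, 1 point per library, with DKO above Smarca1 KO and WT in each row; genes are ordered by their mean. Levels run from 12.9 TPM for Srsf12 to 2615 TPM for Hnrnpa2b1, and the DKO points lie left of the WT points for most genes.

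In DKO against WT, most of the 31 genes had slightly lower values in DKO. Of these genes, 30 had a negative log2 fold change, against 48.3% of all 15773 genes tested, and in 28 the 3 DKO libraries lay below the 3 WT libraries, against 20.4% of all genes. The median log2 fold change was -0.13 over the 31 genes and 0.01 over all genes. All 31 genes passed the filter on low counts. In bulk tissue, fewer cells that express these genes and less RNA per cell cannot be told apart. The shift was also visible in the raw share of reads: the 31 genes took 1.88, 1.83 and 1.80% of the counts in DKO, 1.92, 1.96 and 1.78% in Smarca1 KO and 1.99, 1.98 and 2.02% in WT, and every WT library lay above every other library.

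At an adjusted p under 0.05, 9 of the 31 genes were called lower in DKO than in WT and 0 higher, where the same test called 6.35% of all genes lower and 12% in either direction. They were 7 of the 20 hnRNP genes (Hnrnpf, Hnrnpu, Hnrnpll, Hnrnpa0, Hnrnpul2, Hnrnpm and Hnrnpdl) and 2 of the 11 SR genes (Srsf6 and Srsf4). A further 13 had an unadjusted p under 0.05 only, which made 22 in all, against 31% of all genes. Of these 13, Srsf12 was higher in DKO and the others were lower. The falls of the 9 called genes were small, between 0.14 and 0.30 on the log2 scale.

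Hnrnpf fell furthest. It encodes a G-run binding relative of hnRNP H (ENSMUSG00000042079.13, GRCm38 chromosome 6, 117900324 to 117925622). It had 470.4, 427 and 408 CPM for DKO, 489.8, 499 and 420.4 CPM for Smarca1 KO and 535, 534 and 544 CPM for WT. All DKO libraries and all Smarca1 KO libraries were below the lowest WT library, while DKO and Smarca1 KO overlapped. The log2 fold change of DKO over WT was -0.30 ± 0.07 (SE), adjusted p 0.025 by edgeR. Of the 31-base words in its transcripts, 38.5% also occur in other genes. Of these genes, 6 were copies with at least 50% of their words in Hnrnpf. Their counts together equalled 0.0140% of those of Hnrnpf.

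Srsf6 had the smallest p. It encodes an SR protein with a pair of RNA recognition motifs (ENSMUSG00000016921.14, chromosome 2, 162931528 to 162937121), and none of its sequence words occurs in another gene. It had 505, 505 and 486 CPM for DKO, 536, 555 and 499.6 CPM for Smarca1 KO and 565, 572 and 583 CPM for WT. DKO lay below WT without overlap, with a log2 fold change of -0.20 ± 0.04 (edgeR, adjusted p 0.021). Srsf4, another SR protein of the same domain layout, had 192, 195 and 190.4 CPM for DKO, 193, 206 and 192 CPM for Smarca1 KO and 215, 214 and 210.4 CPM for WT, a log2 fold change of -0.15 ± 0.04 for DKO over WT (edgeR, adjusted p 0.036).

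Hnrnpu encodes the scaffold attachment factor SAF-A, which binds both RNA and DNA of the nuclear scaffold and whose loss of function causes a neurodevelopmental disorder in humans. It had 1328, 1272 and 1256 CPM for DKO, 1335, 1388 and 1225 CPM for Smarca1 KO and 1492, 1462 and 1472 CPM for WT. Every library of DKO and Smarca1 KO lay below every WT library, and DKO over WT was -0.20 ± 0.05 on the log2 scale (edgeR, adjusted p 0.028). Its relative Hnrnpul2, with roles in the DNA damage response, had 339, 369 and 363 CPM for DKO, 360.2, 373 and 378 CPM for Smarca1 KO and 415, 397 and 399 CPM for WT, with a log2 fold change of -0.18 ± 0.04 for DKO over WT (edgeR, adjusted p 0.029). Hnrnpul1, the remaining gene of that branch, had 345, 351 and 342 CPM for DKO, 320.0, 340.5 and 319 CPM for Smarca1 KO and 353, 352 and 352 CPM for WT, and its DKO over WT value was -0.03 ± 0.04 (edgeR, adjusted p 0.685).

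The other 4 called genes have distinct roles. Hnrnpll had 168, 161 and 155 CPM for DKO, 169.8, 173 and 155 CPM for Smarca1 KO and 185, 186 and 183 CPM for WT (log2 fold change of DKO over WT -0.19 ± 0.05, edgeR adjusted p 0.034). Hnrnpa0, an A/B-type hnRNP that binds AU-rich elements and has a single transcript in this annotation, had 841, 862 and 823 CPM for DKO, 835, 900.2 and 836 CPM for Smarca1 KO and 962, 905 and 993 CPM for WT (-0.18 ± 0.05, edgeR adjusted p 0.037). Hnrnpm, a splicing silencer bound to GU-rich motifs, had 545, 538 and 521 CPM for DKO, 532, 571 and 506 CPM for Smarca1 KO and 600.0, 596 and 599.6 CPM for WT (-0.16 ± 0.05, edgeR adjusted p 0.048). In all 3 genes DKO and WT did not overlap. Hnrnpdl, a relative of the AU-rich element binder Hnrnpd that regulates its own RNA, had 550.4, 533 and 536 CPM for DKO, 578, 566 and 537 CPM for Smarca1 KO and 585, 604 and 589 CPM for WT (-0.14 ± 0.04, edgeR adjusted p 0.0495), again without overlap between DKO and WT.

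**Figure D2:**
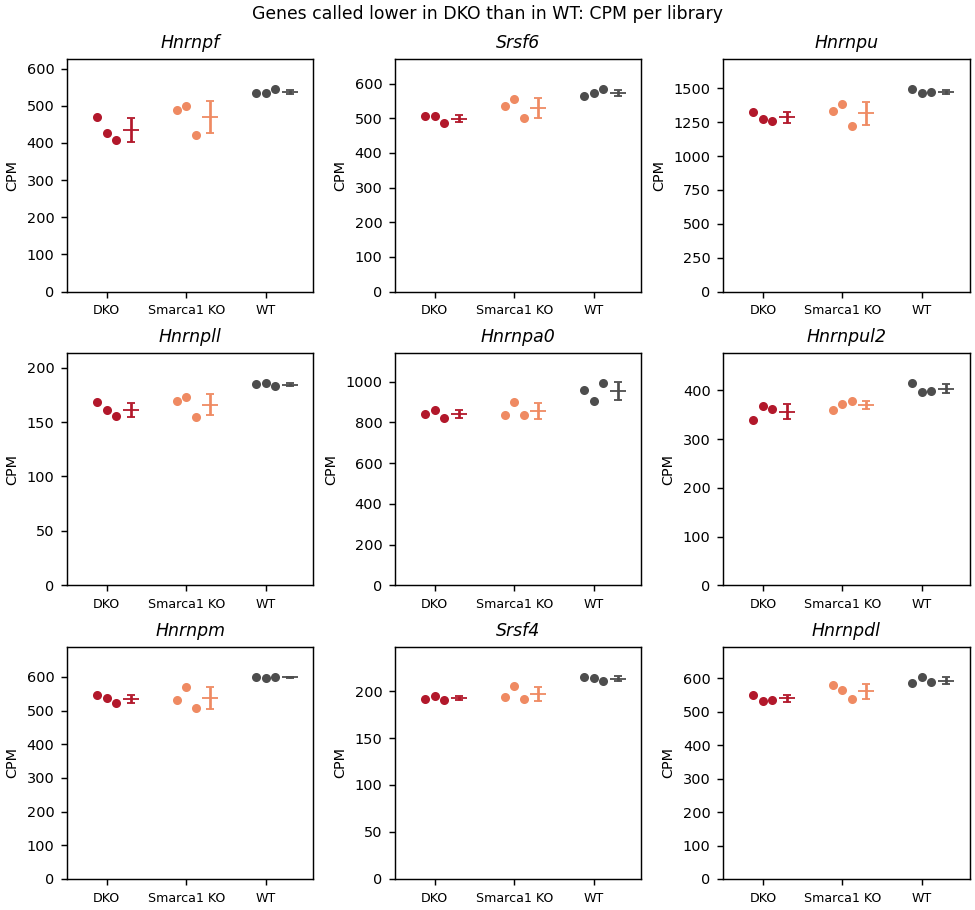
CPM of the 9 genes called lower in DKO than in WT, 1 point per library with the group mean and SD beside it, on axes that start at 0. In every panel the 3 DKO points lie below the 3 WT points, and the Smarca1 KO points overlap those of DKO.

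The calls rest on small differences, and single libraries decide them. The share of all genes called also moved from fit to fit, from 12% in the main fit. Leaving out DKO replicate 2, DKO replicate 3, WT replicate 1 or WT replicate 3 left 0 of the 31 genes called. In these fits 4.45, 3.41, 2.82 and 3.24% of all genes were called. Leaving out WT replicate 2 left 1 (3.37% of all genes) and leaving out DKO replicate 1 left 5 (13.4%). Leaving out Smarca1 KO replicate 3 raised the number to 18 (19.8%). When any single library was left out, the median log2 fold change over the 31 genes was between -0.15 and -0.13. A fit of only the DKO and WT libraries called 21 (22.1% of all genes). A fit with the level of 4 Y-linked genes as a covariate, which itself differed between the groups, called 0 (0.0444%). With that covariate the median over the 31 genes was -0.05 and 1 gene had an unadjusted p under 0.05, where 1304 of 15773 genes had one. Without DKO replicate 3 the number with such a p was 12, where 3667 of 15942 genes had one. The 9 log2 fold changes remained negative in each of the 17 alternative fits, which adds little. These genes were picked as lower in the same libraries, and DKO and WT did not overlap in any of them. Leaving out a library could therefore hardly turn a sign. Over the same comparison the 22 genes not called included the abundant Hnrnpa2b1 (-0.14 ± 0.04, edgeR adjusted p 0.055), Hnrnph1 (-0.14 ± 0.04, adjusted p 0.060) and Srsf1 (-0.15 ± 0.05, adjusted p 0.093), for which DKO and WT did not overlap.

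Srsf12 was the exception in sign. It had 12.4, 13.8 and 16 CPM for DKO, 12.6, 12.7 and 16.1 CPM for Smarca1 KO and 11.4, 9.08 and 11.9 CPM for WT. All libraries of DKO and of Smarca1 KO lay above the WT libraries, but DKO over WT, at 0.38 ± 0.14, did not pass the test (edgeR, adjusted p 0.103), nor did Smarca1 KO over WT at 0.35 ± 0.14 (adjusted p 0.237). With the Y-linked covariate its DKO over WT value was -0.13, still not called. Srsf5 and Srsf3 were the genes whose DKO and WT libraries overlapped. Srsf5 had 451, 471 and 457 CPM for DKO against 471, 465 and 477 CPM for WT, and Srsf3 had 593, 548 and 553 CPM for DKO against 591, 617 and 626 CPM for WT.

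Smarca1 KO against WT showed lower values for most genes but no call. Of the 31 genes, 29 had a negative log2 fold change, against 47.2% of all genes, and 17 had no overlap between lower Smarca1 KO and higher WT libraries, against 13.6% of all genes. The median was -0.10 for the 31 genes and 0.01 for all genes, and single libraries set its size: it was -0.05 without Smarca1 KO replicate 3 and -0.13 without Smarca1 KO replicate 2. With edgeR, 0 of the 31 passed an adjusted p under 0.05, where 0.336% of all genes did (0.197% lower). An unadjusted p under 0.05 was found for 14, against 18.9% of all genes. Of these, Srsf12 was higher in Smarca1 KO and the others were lower. That 14 became 8 without Smarca1 KO replicate 3, where 1947 of 16049 genes had such a p. It became 22 without Smarca1 KO replicate 2 (3522 of 16061 genes). It became 9 without Smarca1 KO replicate 1 (3507 of 15944 genes) or WT replicate 3 (1969 of 16076 genes). DESeq2 called 4 (Hnrnpd, Hnrnpa0, Hnrnpu and Hnrnpm), all lower, where it called 3.09% of all genes. The smallest p belonged to Hnrnpd, known as AUF1, a destabiliser of AU-rich mRNAs, with 560.4, 568 and 505 CPM for Smarca1 KO and 637, 608 and 618 CPM for WT, and a log2 fold change of -0.19 ± 0.05 (edgeR, adjusted p 0.137). Within the same gene, DKO had 565, 575 and 543 CPM.

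The comparison of DKO with Smarca1 KO, which adds Cre and the loss of Smarca5 on the shared Smarca1 background, gave no call either. With edgeR, 0 of 31 genes passed, where 4.39% of all genes did (2.66% lower). Of the 31, 3 had an unadjusted p under 0.05, against 18.4% of all genes. DESeq2 also called 0, where it called 5.0% of all genes. The log2 fold change was negative in 26 genes, against 48.8% of all genes, and in 2 genes (Hnrnph3 and Srsf11) all DKO libraries lay below all Smarca1 KO libraries, against 10.7% of all genes. The median log2 fold change of -0.03 did not keep its size or sign: it was -0.07 without Smarca1 KO replicate 3, -0.002 without Smarca1 KO replicate 2 and 0.05 with the Y-linked covariate. Without Smarca1 KO replicate 3, 12 genes had an unadjusted p under 0.05 and 1, Hnrnph1, was called, lower in DKO. Over all genes 3608 of 16049 had such a p in that fit, and 4.95% were called. Leaving out any other single library left 1 or 2 genes with an unadjusted p under 0.05. Hnrnph3, a relative of hnRNP H that lacks the first RNA-binding domain of that group, had the smallest p, with 165, 169.8 and 170.5 CPM for DKO and 176, 196 and 183 CPM for Smarca1 KO, a log2 fold change of -0.13 ± 0.05 (edgeR, adjusted p 0.163). This comparison is also the test of whether the difference from WT is larger in DKO than in Smarca1 KO, and for none of the 31 genes did it pass. The comparisons of DKO and of Smarca1 KO with WT share the WT libraries, so their values are not independent.

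**Figure D3:**
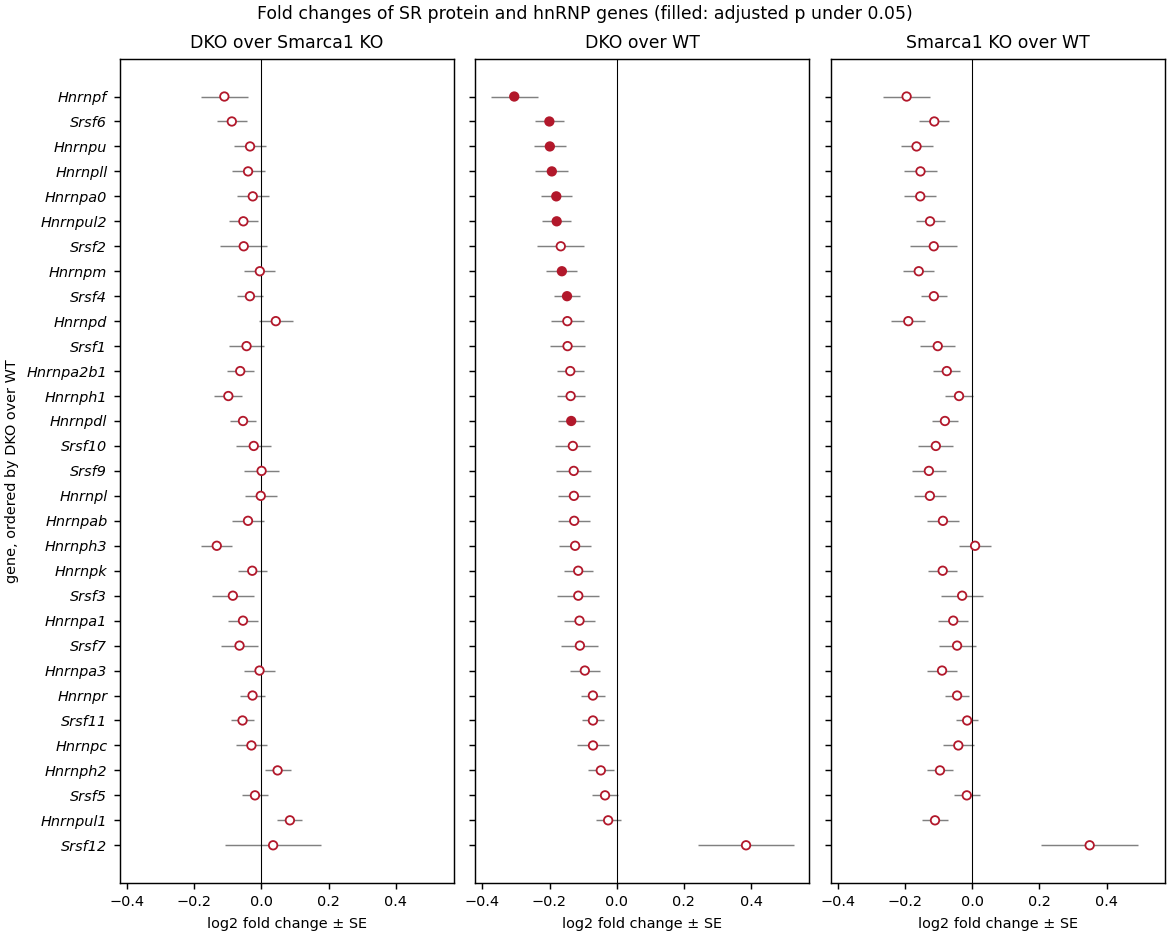
Log2 fold change with its standard error for the 31 genes in the 3 comparisons, ordered by DKO over WT, with filled points for an adjusted p under 0.05 by edgeR. In the middle panel 30 of 31 points lie left of 0 and 9 are filled, and no point is filled in the other panels.

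Smarca1 KO replicate 3 stood apart within its group. It had the lowest share of counts on the 31 genes of any library, 1.78%, below the 1.92% and 1.96% of the other Smarca1 KO libraries and close to the 1.80% of DKO replicate 3. The same library had 454 CPM of Stmn2, a marker of newly formed neurons, against 335 and 347 CPM in the other Smarca1 KO libraries, and 167 CPM of Neurog2, a proneural factor of cortical progenitors, against 216 and 223 CPM. Other markers did not move alike. Of the radial glia genes Emx1 and Hes1 were lowest of the group in this library, while Slc1a3 and Fabp7 were highest (Fabp7 384 against 353 and 375 CPM). Of the intermediate progenitor genes Neurog1 was lowest and Neurod4 highest (8.56 against 6.71 and 7.61 CPM). Fezf2, a projection neuron marker, lay between the other libraries (109 against 98.3 and 114 CPM). Leaving out Smarca1 KO replicate 3 moved both comparisons of the Smarca1 KO group, as given with each of them above.

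Markers of several cell types also differed between the groups, and the counts of called markers below, all for DKO against WT, stand beside the 12% of all genes called in that comparison. The 7 markers of intermediate progenitors summed to 685 to 712 CPM for DKO, 699.7 to 847 CPM for Smarca1 KO and 829 to 856 CPM for WT, and 3 of them were called lower in DKO than in WT and 0 higher. Of 10 radial glia markers, 2 were called higher and 3 lower, with sums of 2272 to 2532 CPM for DKO, 2141 to 2415 CPM for Smarca1 KO and 2514 to 2581 CPM for WT. Of 9 markers of projection neurons, 1 was called higher and 1 lower. Ventral interneuron markers summed to 879 to 1083 CPM for DKO, 827 to 895 CPM for Smarca1 KO and 749 to 856 CPM for WT, with 3 of 7 called higher in DKO than in WT. Of 6 microglia markers 3 were called higher, with sums of 43.1 to 54.6 CPM for DKO, 31.7 to 38.8 CPM for Smarca1 KO and 32.1 to 33.6 CPM for WT, and of 5 Cajal-Retzius markers 2 were called higher. Of 6 blood markers 1 was called lower, and of 5 markers of cortical hem and choroid plexus 1 was called higher. Of 6 endothelial and mural and 6 meningeal markers 0 were called. In each of these lists 0 had an unadjusted p under 0.05, against 31% of all genes. No marker was at 0 in all 9 libraries. The part of these marker differences in the lower SR and hnRNP levels was not tested.

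Part of the RNA of these genes is not coding. Over all 9 libraries, transcripts annotated as NMD targets took 6.83% of the counts of the 31 genes and retained-intron transcripts 8.28%. Other processed transcripts took 4.22%, and for Hnrnph1 alone they took 48.3% of its counts. The 5 highest retained-intron shares of counts were those of SR genes: Srsf5 had 53.6% of its counts on such transcripts, Srsf11 45.8%, Srsf6 38.8%, Srsf7 26.7% and Srsf3 26.6%. Among hnRNP genes the highest was Hnrnpa2b1 at 20.6%. The order depended on the scale: by share of TPM, which weights short transcripts more, Srsf11 led with 65.1%, then came Srsf6 with 39.4% and Srsf5 with 32.9%, and the hnRNP genes Hnrnpa2b1 (29.9%) and Hnrnph3 (27.9%) stood above Srsf7 (26.0%) and Srsf3 (18.9%). The largest NMD shares of counts were in hnRNP genes, with 46% for Hnrnpu, 17.2% for Hnrnph3, 16.2% for Hnrnpdl, 14.6% for Hnrnpa1 and 11.8% for Hnrnpll, followed by Srsf3 at 10.2% and Srsf6 at 10.1%. By share of TPM, Hnrnpu (61.2%) and Hnrnpdl (20.0%) led, and Srsf6 was the third at 18.1%. These are shares that the quantification assigned where transcripts overlap: only 1.92% of the sequence words of Hnrnpu-206, the transcript with almost all of the NMD counts of Hnrnpu, are found in no other transcript.

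**Figure D4:**
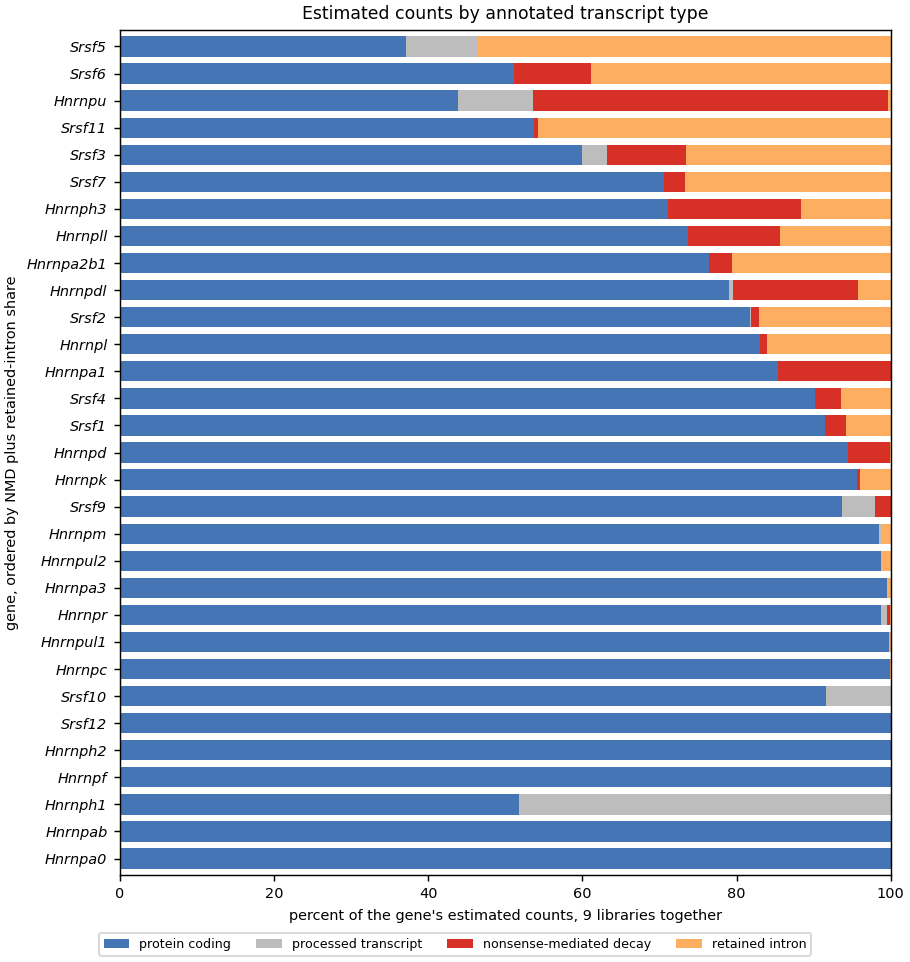
Percent of each gene's estimated counts on coding, processed, NMD and retained-intron transcripts, 9 libraries together, for the 31 genes. Srsf5, Srsf6, Srsf11, Srsf3 and Srsf7 have the longest retained-intron bars, and Hnrnpu has the longest NMD bar at 46%.

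The annotated NMD transcripts have several layouts. In 10 NMD transcripts from 6 SR genes the stop codon lies in an exon that the gene's most abundant coding transcript lacks, the poison exon layout, and 5 SR transcripts have it elsewhere or share it with the coding transcript. In hnRNP genes 2 transcripts from 2 genes have a poison exon, 10 have the stop elsewhere in an exon of the coding transcript and 8 end at the normal stop but with an exon junction downstream. The poison exons of the more abundant NMD transcripts are shown from their first base to the premature stop, which is in capitals (GRCm38, transcripts of GENCODE M21). Each stretch holds the premature stop of a transcript annotated as an NMD target, and decay itself was not measured.
Srsf3-201, chr17:29039454-29039487, plus strand: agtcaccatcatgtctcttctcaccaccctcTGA
Srsf6-201, chr2:162932815-162932966, plus strand: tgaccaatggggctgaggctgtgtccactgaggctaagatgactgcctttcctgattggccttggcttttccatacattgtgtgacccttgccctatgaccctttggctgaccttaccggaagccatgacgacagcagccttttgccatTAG
Srsf7-203, chr17:80205054-80205081, minus strand: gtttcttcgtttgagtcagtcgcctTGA
Srsf4-203, chr4:131884276-131884390, plus strand: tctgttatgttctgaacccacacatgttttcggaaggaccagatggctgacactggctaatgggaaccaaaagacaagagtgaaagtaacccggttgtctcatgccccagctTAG
Hnrnpll-203, chr17:80044976-80045022, minus strand: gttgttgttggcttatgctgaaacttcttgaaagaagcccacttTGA
The stop comes after 34 bases in Srsf3 and 28 bases in Srsf7, whose poison exons are 456 and 460 bases long, so most of each of these exons lies behind the stop. The Srsf6 exon overlaps an exon of the minor coding transcript Srsf6-202, while the other 4 overlap no coding exon.

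In Srsf3, Srsf6 and Srsf7 the retained intron and the poison exon are the same stretch of the gene. Srsf3-204 retains the intron chr17:29038625-29040774, which holds the Srsf3 poison exon, Srsf7-206 and Srsf7-207 retain chr17:80204388-80205261, which holds that of Srsf7, and Srsf6-204 reads through chr2:162932143-162933425, which holds that of Srsf6. Reads within these exons fit both kinds of transcript: 0% of the sequence words of Srsf3-201 and 1.71% of those of Srsf6-201 are their own. In the retained-intron transcripts of Srsf11 no whole intron of a coding transcript was found, so none is shown for that gene. The introns kept in the other leading retained-intron transcripts begin as follows, with the GT of the 5′ splice site in capitals, because this is the site that stays unused.
Srsf5-212, intron chr12:80947866-80949094, plus strand: GTttgttgaaatacagttttgagatatttt
Srsf6-204, intron chr2:162932143-162933425, plus strand: GTgagtccttacccccgcgcgctccgcgtc
Srsf7-207, intron chr17:80204388-80205261, minus strand: GTatttaattaatgaaggaatggttggtat
Srsf3-204, intron chr17:29038625-29040774, plus strand: GTacttgagagagcaccttttagagaaagg
These introns are 1229 bases (Srsf5), 1283 bases (Srsf6), 874 bases (Srsf7) and 2150 bases long (Srsf3), and each ends in AG.

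Whether these shares differed between genotypes was tested within each gene. By limma on the log2 ratio of NMD counts to the gene's other counts, 0 of the 18 genes with enough counts were called in any of the 3 comparisons, where 0.128% (DKO over Smarca1 KO), 0.0426% (DKO over WT) and again 0.0426% (Smarca1 KO over WT) of 2350 genes were. At an unadjusted p under 0.05 there were 1, 0 and 2 of the 18, in the same order, where 5.32, 6.09 and 6.6% of the 2350 genes had one. For retained introns 0 of 22 genes were called in any comparison, where 0.0167%, 0.0836% and 0.100% of 5982 genes were, and 3, 3 and 2 had an unadjusted p under 0.05, where 6.2, 7.94 and 8.14% of the 5982 genes had one.

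For DKO over Smarca1 KO, Srsf6 had the smallest unadjusted p of the tested members in both measures, with values in opposite directions and no call. Its retained-intron share was 36.8, 36.6 and 37.5% in DKO, 41.6, 40.2 and 39.5% in Smarca1 KO and 38.4, 39.3 and 39.7% in WT, with every DKO library below the other 6. The log2 ratio was -0.21 ± 0.05 for DKO over Smarca1 KO, an unadjusted p of 0.00219 and an adjusted p of 0.414 by limma, so it did not pass. Its NMD share was 11.7, 11 and 10.7% in DKO, 9.56, 8.56 and 9.93% in Smarca1 KO and 9.37, 9.94 and 10.1% in WT, with every DKO library above the other 6. That log2 ratio was 0.28 ± 0.09 for DKO over Smarca1 KO (limma, adjusted p 0.855). Smaller adjusted p values of NMD shares were those of Hnrnpll (0.720) and Srsf2 (0.727) for Smarca1 KO over WT by limma, with log2 ratios of 0.49 ± 0.19 and 0.72 ± 0.31, also not called. For DKO over Smarca1 KO, Hnrnpm had a lower retained-intron value on a far smaller share, with a log2 ratio of -0.70 ± 0.17 (limma, adjusted p 0.414).

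Srsf11 had 46.9, 45.1 and 44.4% of its counts on retained-intron transcripts in DKO, 43.4, 44.4 and 45.6% in Smarca1 KO and 49.0, 47.3 and 46.5% in WT. The Smarca1 KO libraries lay below the WT libraries without overlap, while DKO overlapped both. The log2 ratio of Smarca1 KO over WT was -0.18 ± 0.06, with an adjusted p of 0.532 by limma, so it was not called. Srsf5 had 54.4, 50.8 and 52.4% on retained-intron transcripts in DKO, 57.3, 54.4 and 54.3% in Smarca1 KO and 51.7, 53.1 and 54.7% in WT, and its groups overlapped. Srsf3 had 23.8, 26.4 and 26.1% in DKO, 25.7, 25.8 and 28.3% in Smarca1 KO and 28.4, 27.4 and 27.8% in WT, with DKO below WT without overlap but no call (log2 ratio -0.18 ± 0.07, limma adjusted p 0.589). The NMD share of Hnrnpu was 46, 46.7 and 45.3% in DKO, 44.6, 45.5 and 46.7% in Smarca1 KO and 46.4, 47.6 and 46.1% in WT. The share of Hnrnpu stayed between 44.6 and 47.6% over the 9 libraries, and the groups overlapped.

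**Figure D5:**
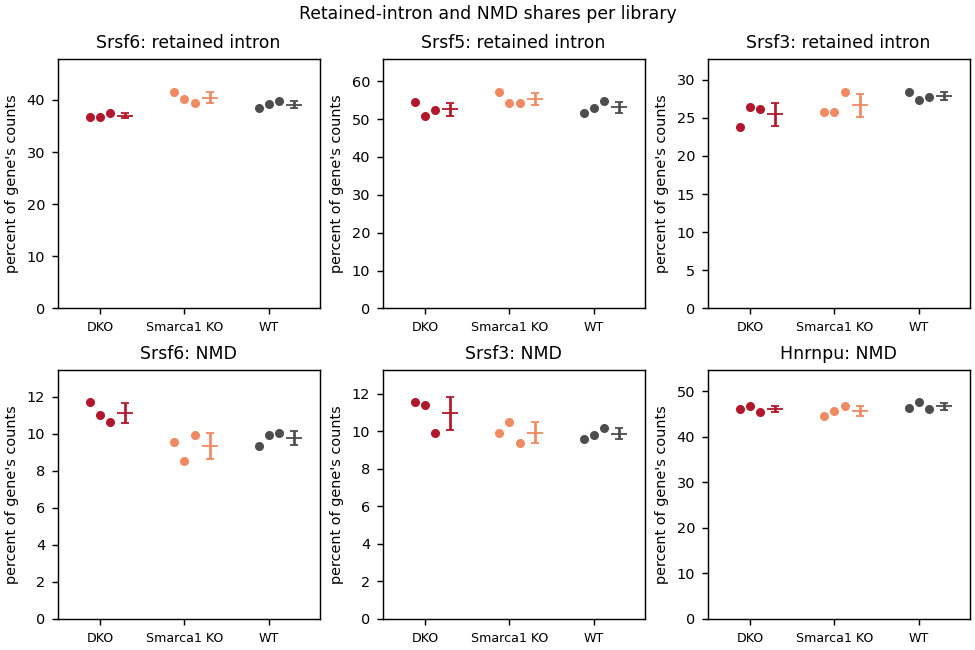
Percent of the gene's counts on retained-intron transcripts (Srsf6, Srsf5, Srsf3) and on NMD transcripts (Srsf6, Srsf3, Hnrnpu), 1 point per library with group mean and SD, axes from 0. The Srsf6 retained-intron share is lower, and its NMD share higher, in the 3 DKO libraries than in the other 6.

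Single transcripts gave no call with edgeR. Of 236 transcripts of the 31 genes tested, 0 passed in each comparison, where 0.132% (DKO over Smarca1 KO), 0.327% (DKO over WT) and 0.0296% (Smarca1 KO over WT) of 50753 transcripts did, and 25, 55 and 38 had an unadjusted p under 0.05, where 8.31, 12.5 and 8.96% of all transcripts had one. DESeq2, with 268 transcripts of these genes among 84616, called 2, 19 and 3, all lower in the first-named group. It called 1.1, 2.25 and 0.82% of all transcripts. The smallest p in DKO against WT was that of Srsf10-202, a transcript of the splicing repressor SRSF10 that is dephosphorylated on heat shock, at -0.43 ± 0.08 (edgeR, adjusted p 0.082). In DKO against Smarca1 KO it was Srsf6-204, the retained-intron transcript above, at -0.21 ± 0.05 (edgeR, adjusted p 0.276). In Smarca1 KO against WT it was Hnrnpu-206, at -0.19 ± 0.04 (edgeR, adjusted p 0.315).

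Other genes of the splicing machinery were counted in the same way for DKO against WT, where 6.35% of all genes were called lower and 12% in either direction. Of 26 SR-related genes, 3 were called lower and 0 higher, among them Son, a large nuclear speckle protein, with 685, 668 and 663 CPM for DKO and 760.5, 747 and 735 CPM for WT (log2 fold change -0.15 ± 0.04, edgeR adjusted p 0.029). Of 13 genes for SR protein kinases, importers and phosphatases, 2 were called lower and 0 higher. Srpk1, the kinase that phosphorylates SR proteins in the cytoplasm for import, had 161, 149.7 and 151 CPM for DKO, 173, 173 and 159 CPM for Smarca1 KO and 184, 177 and 183 CPM for WT (DKO over WT -0.24 ± 0.05, edgeR adjusted p 0.015).

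Of 31 hnRNP-type proteins with other symbols, 6 were called lower and 1 higher in DKO than in WT. Msi1, a translational regulator of neural stem cells, had 302, 311 and 284 CPM for DKO, 312, 341 and 296 CPM for Smarca1 KO and 389, 376 and 389 CPM for WT (DKO over WT -0.36 ± 0.06, edgeR adjusted p 0.00615). Sfpq had 718, 721 and 714 CPM for DKO, 758, 820.4 and 721 CPM for Smarca1 KO and 870.1, 825 and 845 CPM for WT (-0.24 ± 0.05, adjusted p 0.016). Pspc1, which forms paraspeckles with Sfpq, went the other way, at 99.9, 95.2 and 95.6 CPM for DKO, 83.7, 82.1 and 84.7 CPM for Smarca1 KO and 81.8, 82.0 and 80.5 CPM for WT, and DKO lay above both other groups (DKO over Smarca1 KO 0.21 ± 0.04, edgeR adjusted p 0.012).

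Of 58 core spliceosome genes, 10 were called lower and 1 higher in DKO than in WT, with Prpf8 at 446, 478 and 466 CPM for DKO and 526, 516 and 517 CPM for WT. Of 29 neural splicing regulators 2 were lower and 1 higher, Celf4, and of 21 genes of NMD and the exon junction complex 2 were lower and 1 higher, Smg9, shares close to those over all genes. Of 7 other NMD-sensitive genes, 0 were called, with 3 at an unadjusted p under 0.05, where 31% of all genes had one. The median log2 fold changes of these lists lay between -0.10 and -0.02, and that of all genes was 0.01. For Smarca1 KO over WT 0 genes of these 7 lists were called by edgeR, and for DKO over Smarca1 KO 5 were, a smaller share than the 4.39% over all genes: Pspc1 higher, and Dyrk2, Khsrp, Khdrbs2 and Rbm25 lower.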

How the data were processed

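RNA was made into stranded mRNA libraries, per the labels' protocols. The authors deposited a table per library with an estimated count, TPM, length and effective length for each of 116546 transcripts, made with Salmon 1.4.0 on mm10, per the submitters' processing notes and the file headers; DESeq2 is named there with no role. The deposited TPM values were used for levels between genes and for an alternative. The index, annotation release and strand mode were not given in the sources used here. Identifiers without version matched GENCODE M21 for 115977 transcripts. Estimated counts were summed to genes and rounded.

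Genes, and transcripts, were tested with edgeR 4.0.16 (TMM factors 0.991 to 1.02, filterByExpr, quasi-likelihood F test, 9 libraries in 1 fit with group means; R 4.3.3), and shares with limma 3.58.1 on log2 ratios with 0.5 added and a mean of at least 10 counts on both sides. The Benjamini-Hochberg adjustment ran over all features tested, at 0.05. The functions were tested on simulated data. The common biological coefficient of variation was 10.2%. Sequence words are 31 bases; a copy shares at least 50% of its words with the gene. A poison exon was defined against the most abundant coding transcript, a definition changed after the exons had been looked at, since absence from every coding transcript left out Srsf6. Genes named were those called, those with the highest and lowest levels, and those with the smallest p where none was called. The leading NMD and retained-intron transcripts and called genes of the lists were also named. Hnrnpul1, Hnrnpa2b1, Hnrnph1, Srsf1, Srsf3 and Srsf5 in the comparisons were named after their values were seen. So were Stmn2, Neurog2 and the other markers given for Smarca1 KO replicate 3. Members and lists were chosen with earlier results of these data known. Alternatives were DESeq2 1.42.0, RLE scaling, other filters and pseudocounts, length offsets, a replicate block, a Y-linked covariate and leaving out each library.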

Additional observations from a re-analysis of the deposited data

How the results depend on the processing

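The number of the 31 genes called in DKO against WT (9) was 12 with DESeq2, 9 with RLE scaling, 6 with no filter, 6 with effective-length offsets and 9 with near-identical copies added. It was 21 when only the 2 groups were fitted (22.1% of all genes), and 0 with a covariate for Y-linked genes (0.0444%). The mean log2 CPM of these Y-linked genes was 5.80 to 5.86 in DKO, 5.88 to 6.00 in Smarca1 KO and 5.94 to 6.00 in WT. Group accounted for 0.757 of the variance of that covariate. Leaving out each library gave 0 to 18 in DKO against WT, where 2.82 to 19.8% of all genes were called. In DKO against Smarca1 KO it gave 0 to 1, where 1.78 to 4.95% of all genes were called. The cause was not tested. In Smarca1 KO against WT, DESeq2 called 4 genes, where it called 3.09% of all genes. For transcripts, DESeq2 called 2 in DKO against Smarca1 KO (1.1% of all transcripts), 19 in DKO against WT (2.25%) and 3 in Smarca1 KO against WT (0.82%). The fit of 2 groups called 1 in DKO against WT (0.395%), and leaving out each library 0 to 3 (0.0167 to 0.513%). No NMD or retained-intron share was called in any alternative run. The 9 called genes kept a negative log2 fold change in all 17 alternatives, from -0.36 to -0.04. Their choice as called genes, without overlap between DKO and WT, largely fixed that sign in advance. With the replicate block, the fit called 6 genes in DKO against WT (11.1% of all genes). For DKO against Smarca1 KO it called 0 (3.35%) and for Smarca1 KO against WT 0 (0.184%). It called 0 transcripts or shares in any comparison. Same-numbered libraries correlated at -0.06 to 0.35 and 3 of 9 correlated best with their own number. Such values cannot decide whether the numbers pair the libraries, so this is unknown. The files give no error of the division of reads among transcripts, so this error is in the standard errors of the shares only as far as it differs between libraries.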
